A study of Homo sapiens with 4 samples.

Results

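The genes described here encode the proteins of the cytosolic ribosome, and they were chosen by name. Of the 58051 gene identifiers in the deposited count tables, 77 were annotated as protein coding and carried a name of the RPL, RPLP, RPS or RPSA form without a paralog suffix. Of these, 46 encode proteins of the large (60S) subunit and 31 encode proteins of the small (40S) subunit. The libraries were poly(A) RNA of MCF10A, an established cell line of mammary epithelium that does not form tumours. Cells received 50 nM of an siRNA against LMNA, which encodes lamins A and C (siLMNA), or 50 nM of a non-targeting siRNA against the bacterial gene LacZ (siLacZ), and were collected 48 h after transfection. Each group held 2 libraries, numbered 1 and 2, and the title names lamin A/C, EZH2 and epithelial-to-mesenchymal transition as the subject. Nothing in the labels tells a single siRNA duplex from a pool, or separate cultures from repeat libraries of 1 culture, so every p-value here reflects the spread among 4 libraries that may be technical in origin.

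The ribosome joins a small subunit, which reads the mRNA, to a large subunit, which forms peptide bonds and holds the tunnel through which the new chain leaves. Each ribosome takes 1 copy of nearly every ribosomal protein, with the P stalk proteins as the known exception, and their mRNAs are among the most abundant of a growing cell. Most of these mRNAs start with a C followed by a run of pyrimidines, the 5′ terminal oligopyrimidine (TOP) tract, through which the kinase mTORC1 and the RNA-binding protein LARP1 control their translation and stability.

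The starts of the genes at both ends of the response are printed here because the TOP tract is the sequence feature by which these mRNAs are regulated as a class. Each line gives 20 bases before and 20 bases from an annotated transcript start (RefSeq, GRCh38.p14, read along the gene's own strand), and the capitals mark the C at the start together with the C and T bases that follow it without a break. The first 8 are the genes with the lowest log2 fold changes, from the lowest up, and the last 6 are among the 8 with the highest.
RPL14: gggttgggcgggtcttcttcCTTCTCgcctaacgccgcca
RPL27A: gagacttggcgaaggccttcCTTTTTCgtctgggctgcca
RPSA: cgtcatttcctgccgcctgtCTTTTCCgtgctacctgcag
RPS29: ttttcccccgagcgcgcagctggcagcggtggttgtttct
RPS3: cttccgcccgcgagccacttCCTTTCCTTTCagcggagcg
RPS13: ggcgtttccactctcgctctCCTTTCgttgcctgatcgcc
RPL38: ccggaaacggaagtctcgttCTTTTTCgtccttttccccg
RPL10A: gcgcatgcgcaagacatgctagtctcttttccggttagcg
RPLP1: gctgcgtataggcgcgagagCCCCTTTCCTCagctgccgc
RPL22: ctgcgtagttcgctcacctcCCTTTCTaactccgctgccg
RPS27: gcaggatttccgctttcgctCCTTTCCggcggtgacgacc
RPL31: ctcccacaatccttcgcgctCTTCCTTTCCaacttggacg
RPL10: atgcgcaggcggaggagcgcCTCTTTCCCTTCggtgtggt
RPL15: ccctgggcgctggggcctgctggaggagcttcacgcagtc

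At the starts shown, the tract ran from 6 bases (RPL14 and RPS13) to 12 bases (RPL10). It was not present in these letters at the annotated starts of RPS29, RPL10A and RPL15, and the line for RPL15 is 1 of its 3 annotated starts, none of which held it. The 2 genes lowest in siLMNA, RPL14 and RPL27A, and the gene second from the top, RPL10, all carried a tract. The line for RPL10 is also 1 of 3 annotated starts, and it is the one with the longest tract.

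LMNA itself was at 61.1 and 58.1 CPM (counts per 1e6 counts of the library, scaled by TMM factors) in the siLMNA libraries, against 480 and 524 CPM in the siLacZ libraries. Its log2 fold change of -3.07 (SE 0.077; edgeR adjusted p = 2.98e-15) checks the labels. Library totals, in units of 1e6 counts, ran from 42.8 to 46.2, and RPS13, at 509 and 500.5 CPM in siLacZ, rested there on 22740 and 23657 counts. Of 18540 genes tested across the transcriptome, 27.8% were lower and 26.5% were higher in siLMNA at an adjusted p under 0.05 (edgeR quasi-likelihood test, Benjamini-Hochberg adjustment over all genes tested). Of the 6 listed mammary epithelial markers, KRT5, KRT14, KRT17, TP63, ITGA6 and EPCAM, every one was present in every library. KRT17, ITGA6 and TP63 were higher in siLMNA, KRT14 and EPCAM were lower and KRT5 was not called. The 6 summed to 17276 and 15702 CPM in siLMNA and 13232 and 13694 CPM in siLacZ, and the 5 without KRT17 to 10074 and 9315 CPM in siLMNA and 11511 and 12020 CPM in siLacZ. The part of these differences in the ribosomal protein results was not tested.

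All 77 ribosomal protein genes were tested and all 77 were lower in siLMNA, beside a background of 27.8% of all genes tested. None was higher, and the largest adjusted p among them was 0.00832, that of RPL36A. Both siLMNA libraries lay below both siLacZ libraries for each of the 77, an arrangement seen in 38.8% of all genes tested. Genes at such levels are called more often than rarer ones. Of the 2184 tested genes with a mean of at least 100 CPM, which include the members at that level, 40.2% were lower. Against a minimum change of 1.2-fold (edgeR's glmTreat), which 19.8% of all genes tested passed in the lower direction, 76 of the 77 passed and RPL15 did not (adjusted p = 0.586, in a range of 0.000124 to 0.586 over its 13 alternatives).

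The shift was moderate and similar from gene to gene. The median log2 fold change over the 77 genes was -0.72, which is 60.7% of the siLacZ level, and the middle of the distribution ran from -0.82 to -0.59. Over all genes tested the median was -0.01, and over the 2111 other genes at 100 CPM or more it was -0.02. The SD of the log2 fold changes was 0.18 over the 77 genes and 0.82 over those other abundant genes. Of the ribosomal protein genes, 50 lay within 0.15 of their median, 58 were at least 1.5-fold lower and 5 were at least 2-fold lower. Among the 2111 other abundant genes, 221 (10.5%) had a log2 fold change at or below the ribosomal protein median. Standard errors were small beside the shift, with a median of 0.067 and a range of 0.063 to 0.163.

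**Figure D1:**
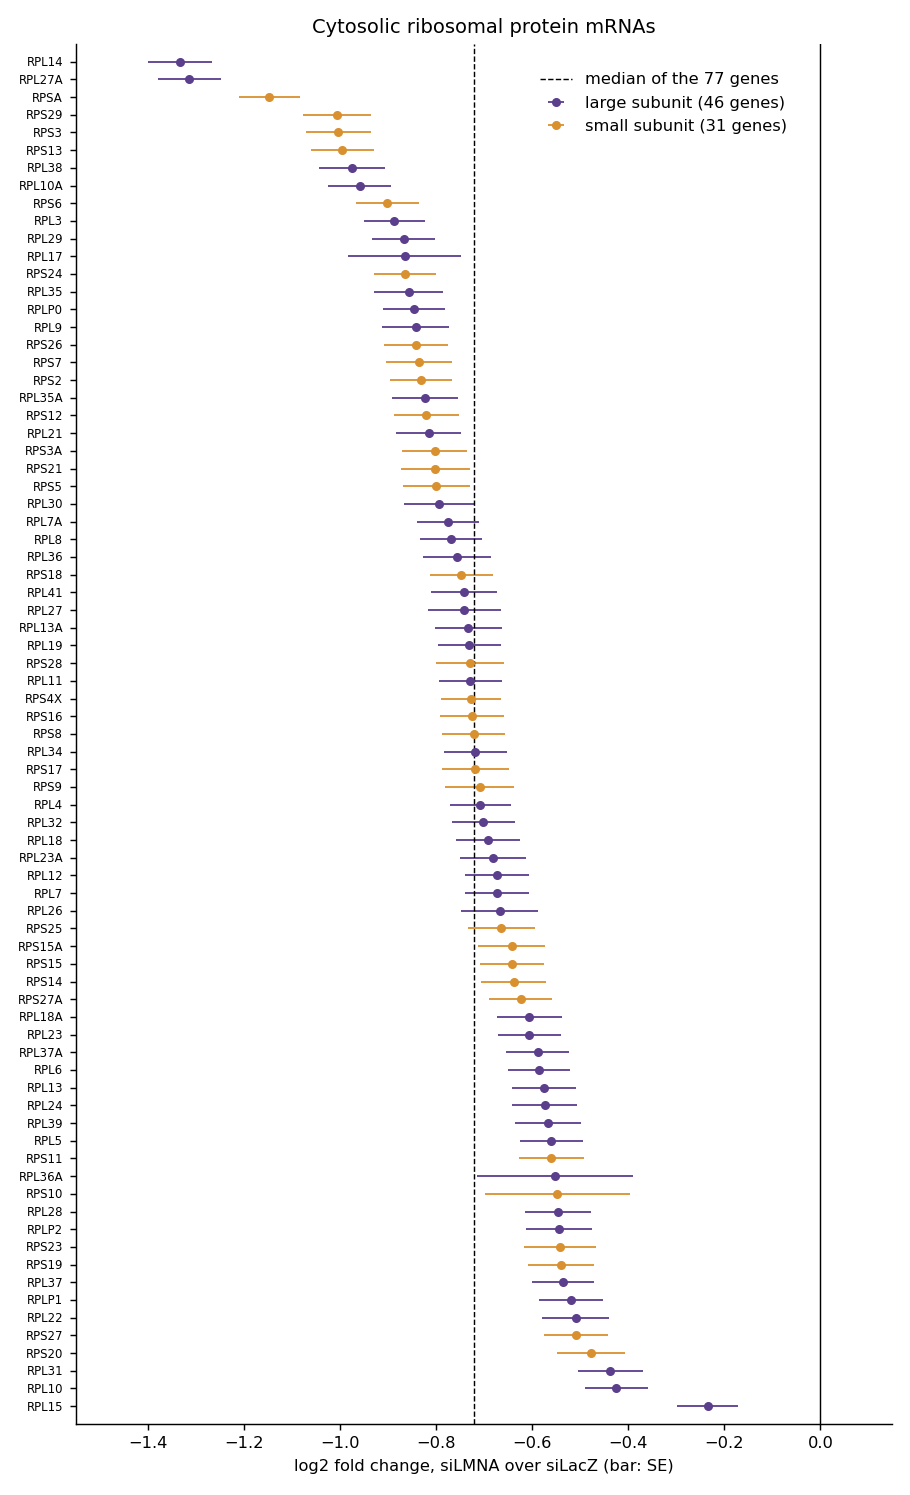
Log2 fold change of each of the 77 ribosomal protein genes (x axis, siLMNA over siLacZ; bars are the standard error of the edgeR fit), sorted from the lowest at the top, with the large subunit in purple and the small subunit in orange. Every point lies left of 0, and the dashed line marks the median of -0.72. The purple points run from RPL14 at -1.33 to RPL15 at -0.23, and the orange points lie among them from -1.15 to -0.48.

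**Figure D2:**
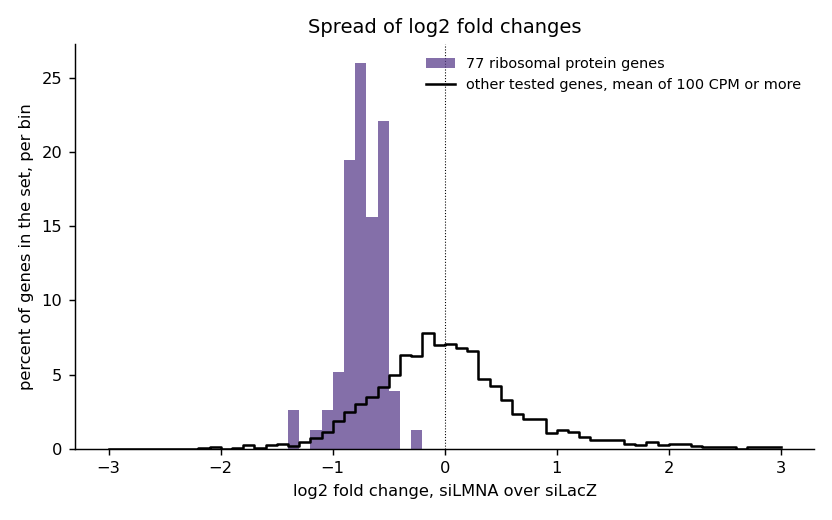
Percent of genes in each bin of log2 fold change (x axis, siLMNA over siLacZ, bins 0.1 wide) for the 77 ribosomal protein genes (filled) and for the 2111 other tested genes with a mean of at least 100 CPM (line). The filled bars form a narrow block around -0.72, while the line is broad and centred close to 0; 25 of the other genes lie outside the range of -3 to 3 that is plotted.

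The members were also lower as a share of the raw counts, which scales by the library total alone. The 77 genes took 4.19% and 4.01% of all counts in the siLMNA libraries, against 7.50% and 7.10% in the siLacZ libraries, a difference of -3.20 percentage points between group means. The 4 values do not overlap between groups, but an exact two-sided permutation test with 2 libraries a group cannot go below the 0.333 found here. The summed level was 43646 and 41234 CPM in siLMNA, against 71836 and 69340 CPM in siLacZ. In siLMNA the fibronectin gene FN1 took 1.96% and 2.10% of the counts, against 0.019% and 0.023% in siLacZ, and its part in the shares was not tested. Without members, their pseudogenes and mitochondrial genes in the TMM step, the members' median was -0.73.

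Mitochondrially encoded genes, often read as a sign of RNA or cell quality, held 0.228% and 0.204% of counts in siLMNA and 0.208% and 0.253% in siLacZ, so the groups overlapped there. Markers of fibroblasts moved with the groups: 3 of 5 were higher, and their summed level was 765 and 767 CPM in siLMNA against 175 and 178 CPM in siLacZ. Most of it came from DCN (decorin) with 629 and 639 CPM in siLMNA and 160 and 163 CPM in siLacZ, while COL1A2 and PDGFRB stayed under 1 CPM in every library. The endothelial markers summed to 6.02 and 5.58 CPM in siLMNA and 4.70 and 3.47 CPM in siLacZ, with PECAM1 higher, and the leukocyte markers PTPRC, CD68 and CD3E had between 0 and 2 counts per library. The part of these differences in the ribosomal protein result was not tested. In bulk RNA, fewer cells of a type and less of an mRNA per cell cannot be told apart, and CPM says nothing of the total RNA per cell.

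The subunits were lower by nearly the same amount. All 46 large-subunit genes were lower, with a median log2 fold change of -0.70 and a range of -1.33 to -0.23. All 31 small-subunit genes were lower too, with a median of -0.73 and a range of -1.15 to -0.48. The difference between the medians, large minus small, was 0.02, about as large as the spread between replicates of that difference (SD 0.021). In pair 1, the libraries numbered 1, the medians were -0.70 for the large and -0.71 for the small subunit, and in pair 2 they were -0.71 for the large and -0.76 for the small subunit.

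Summed over genes, the large subunit took 2.64% and 2.52% of counts in siLMNA, against 4.65% and 4.41% in siLacZ. The small subunit took 1.55% and 1.49% in siLMNA, against 2.85% and 2.69% in siLacZ. The ratio of large-subunit to small-subunit counts was 1.703 and 1.697 in siLMNA and 1.628 and 1.638 in siLacZ. These ratios do not overlap between groups and differ by 0.067 (exact two-sided permutation p = 0.333, the smallest that 2 against 2 libraries allow).

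**Figure D3:**
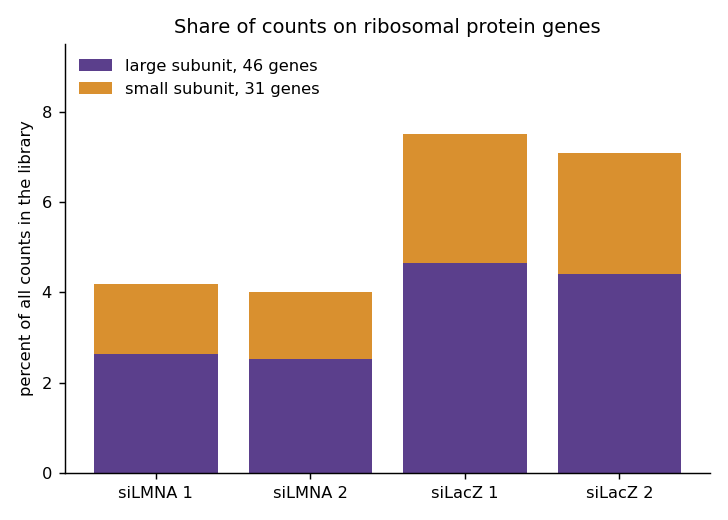
Percent of all counts in each library (y axis) that fell on the 46 large-subunit genes (purple) and the 31 small-subunit genes (orange), stacked, for the 2 siLMNA and the 2 siLacZ libraries. The siLMNA bars reach 4.19% and 4.01% and the siLacZ bars 7.50% and 7.10%, and both colours are shorter in siLMNA.

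RPL14 and RPL27A stood at the lower end, followed by RPSA. RPL14 is a large-subunit protein gene (ENSG00000188846) on the plus strand of hg38 chromosome 3, from 40457292 to 40468587. It was at 457 and 433 CPM in siLMNA, against 1143 and 1098 CPM in siLacZ. Its log2 fold change was -1.33 (SE 0.067; edgeR adjusted p = 2.48e-11), a 2.52-fold lower level. RPL27A (ENSG00000166441; plus strand of chromosome 11, 8682411 to 8714759), another large-subunit gene, was at 409 and 406 CPM in siLMNA and at 1030 and 995 CPM in siLacZ. The libraries of each group lay close together for both genes, and the gap between groups was far wider than the gap within them. RPL27A had a log2 fold change of -1.31 (SE 0.065; edgeR adjusted p = 2.33e-11).

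RPSA encodes a small-subunit protein that has also been described as a precursor of the laminin receptor. It was at 687 and 669 CPM in siLMNA, against 1522 and 1481 CPM in siLacZ (ENSG00000168028; plus strand of chromosome 3, 39406689 to 39412542). The log2 fold change was -1.15 (SE 0.064; edgeR adjusted p = 1.14e-10), and it was -1.15 in each pair. RPSA and RPL14 lie 1.04 Mb apart on chromosome 3, which also carries RPL15, the gene at the other end of the order.

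The next 5 genes completed the 8 lowest. RPS29, a zinc-binding protein of the small-subunit head, was at 150 and 140 CPM in siLMNA and at 300 and 282 CPM in siLacZ. RPS3, which lines the mRNA entry channel, was at 708 and 658 CPM in siLMNA and at 1401 and 1338 CPM in siLacZ. In both cases the siLMNA level was close to 50% of the siLacZ level, 49.8% for RPS29 and 49.9% for RPS3. RPS13, a small-subunit protein, was at 256 and 251 CPM in siLMNA and at 509 and 500.5 CPM in siLacZ. RPL38, known in the mouse for its part in the translation of Hox mRNAs, was at 175 and 165 CPM in siLMNA and at 340 and 328 CPM in siLacZ. Groups did not overlap for either gene, and their log2 fold changes were -0.99 (SE 0.066) and -0.97 (SE 0.069). RPL10A, the protein of the L1 stalk from which spent tRNA leaves, was at 495 and 470 CPM in siLMNA and at 952 and 924 CPM in siLacZ (log2 fold change -0.96, SE 0.066). Of the 8 lowest genes, 4 belong to the large subunit and 4 to the small subunit.

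RPL15 was the least changed. This large-subunit gene, one of those mutated in Diamond-Blackfan anaemia (ENSG00000174748; plus strand of chromosome 3, 23916545 to 23924374), was at 904 and 882 CPM in siLMNA, against 1061 and 1039 CPM in siLacZ. The groups did not overlap, the siLMNA level was 85.0% of the siLacZ level, and the log2 fold change was -0.23 (SE 0.063; edgeR adjusted p = 0.00473). Because the other mRNAs were lower still, RPL15 made up a larger share of the ribosomal protein mRNA, 2.10% in siLMNA and 1.49% in siLacZ. For RPL14 the share was 1.05% in siLMNA and 1.59% in siLacZ.

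RPL10, a protein near the peptidyl transferase centre that joins the 60S subunit late in its assembly, came next with 691 and 648 CPM in siLMNA and 898 and 899 CPM in siLacZ (log2 fold change -0.42, SE 0.065). RPL31, which sits at the exit of the tunnel, was at 434 and 409 CPM in siLMNA and at 590 and 550 CPM in siLacZ (-0.44, SE 0.068). RPS20, a protein of the small-subunit head, was at 488 and 460.5 CPM in siLMNA and at 693 and 628 CPM in siLacZ (-0.48, SE 0.070). All 3 were lower without overlap of the groups, by 1.34-fold, 1.35-fold and 1.39-fold. The remaining 4 of the 8 highest were RPS27, RPL22, RPLP1 and RPL37, with log2 fold changes from -0.54 to -0.51. RPL22, an RNA-binding protein on the surface of the large subunit, was at 360 and 334 CPM in siLMNA and at 513 and 475 CPM in siLacZ. RPS27, a zinc-binding protein of the small subunit, was at 545 and 504 CPM in siLMNA and at 743 and 750 CPM in siLacZ. RPL37, of the large subunit, was at 545 and 517 CPM in siLMNA and at 774 and 765 CPM in siLacZ. Of the 8 highest genes, 6 belong to the large subunit and 2 to the small subunit.

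**Figure D4:**
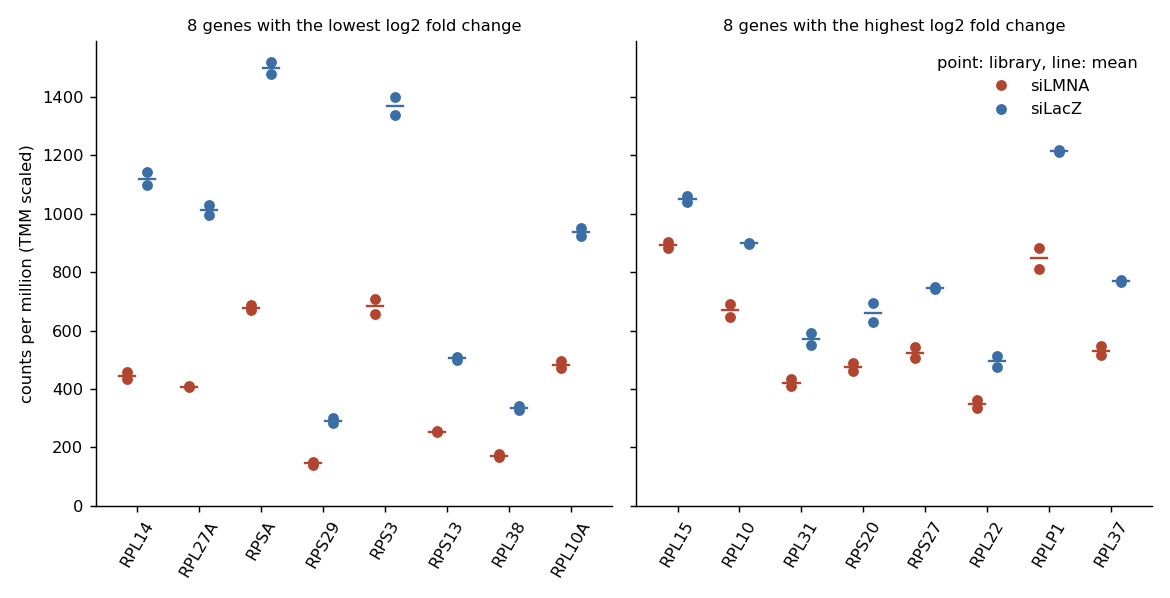
CPM (y axis, TMM scaled, starting at 0) of the 8 genes with the lowest and the 8 with the highest log2 fold change, in siLMNA (red, left of each pair) and siLacZ (blue); each point is a library and each line a group mean. The red points lie below the blue points for all 16 genes, with a wide gap for RPL14 (457 and 433 against 1143 and 1098) and a narrow one for RPL15 (904 and 882 against 1061 and 1039).

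The order of the genes was alike in both numbered pairs, which share no library. Across the 77 genes the log2 ratio of pair 1 and that of pair 2 had a Pearson r of 0.91 and a Spearman rho of 0.88, as a description over genes that share the same 4 libraries. The pair medians were -0.70 in pair 1 and -0.73 in pair 2. Within a group the libraries also differed in a common direction: siLMNA 2 was below siLMNA 1 in 75 of the 77 genes, by a median of -0.09 on the log2 scale, and siLacZ 2 was below siLacZ 1 in 68, by a median of -0.06. Both medians are small beside the median shift of -0.72 between groups. The size of the change had little relation to the level in siLacZ per kilobase of transcript (r = -0.14, rho = -0.16) or to coding length (r = -0.18, rho = -0.22).

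By place in the ribosome, the groups of genes had medians that lay close together. The 4 genes of the P stalk, which recruits and activates the translation factors, were all lower, with a median log2 fold change of -0.61. RPLP0, the base of the stalk, was at 1390 and 1304.5 CPM in siLMNA and at 2430 and 2413 CPM in siLacZ (-0.85, SE 0.064). Its partners RPLP1, at 884 and 811 CPM in siLMNA and 1218 and 1210 CPM in siLacZ, and RPLP2, at 422 and 382 CPM in siLMNA and 583 and 589 CPM in siLacZ, were less changed (-0.52, SE 0.067, and -0.54, SE 0.069). RPL12, which anchors the stalk, had a log2 fold change of -0.67 (SE 0.066). The mRNAs of the stalk thus lay on both sides of the overall median, and the difference among them was not tested.

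The 5S RNP proteins RPL5 and RPL11, which carry 5S rRNA into the large subunit and can bind the p53 regulator MDM2, were both lower. RPL5 was at 790 and 751 CPM in siLMNA and at 1163 and 1110 CPM in siLacZ (-0.56, SE 0.065), and RPL11 was at 610 and 574 CPM in siLMNA and at 996 and 967 CPM in siLacZ (-0.73, SE 0.066). The 9 genes of the tunnel and its exit had a median of -0.68 and a range of -0.87 (RPL17) to -0.44 (RPL31). On the small subunit, the 14 genes of the head had a median of -0.72, from -1.01 (RPS29) to -0.48 (RPS20), and the 17 genes of the body and platform a median of -0.80, from -1.15 (RPSA) to -0.51 (RPS27). The 17 listed genes mutated in Diamond-Blackfan anaemia, an inherited failure of red cell production, had a median of -0.73. Every gene of these lists was lower, and the list medians ran from -0.80 for the body and platform to -0.61 for the P stalk. RPS27A, made as a fusion of ubiquitin with a small-subunit protein, was at 547 and 537 CPM in siLMNA and at 855 and 816 CPM in siLacZ (-0.62, SE 0.065). RPL7A, a large-subunit gene that hosts snoRNA genes, had a log2 fold change of -0.77 (SE 0.065).

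Levels per kilobase of transcript spanned 266-fold between the members in siLMNA and 281-fold in siLacZ, and their order was nearly the same in both groups. The log2 CPM per kilobase in siLMNA and in siLacZ had a Pearson r of 0.99 and a Spearman rho of 0.95 over the 77 genes. The length used is the median over a gene's protein-coding transcripts in GENCODE 29, so these levels are approximate. RPLP1 had the highest level in siLMNA, with 1904 CPM per kilobase there and 2729 in siLacZ. RPS2, a small-subunit protein at the mRNA entry site, had the highest level in siLacZ, with 1651 CPM per kilobase in siLMNA and 2938 in siLacZ. By the mean over all 4 libraries, RPS14, RPS18 and RPL7A completed the 5 highest. They lay between 1372 and 1564 CPM per kilobase in siLMNA and between 2348 and 2454 in siLacZ. RPL7A was not among the 5 highest of either group taken alone.

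At the other end, 3 genes stayed under 20 CPM in every library. RPL36A was at 5.20 and 4.86 CPM in siLMNA and at 8.48 and 6.28 CPM in siLacZ. RPS10 was at 4.85 and 4.37 CPM in siLMNA and at 6.53 and 6.94 CPM in siLacZ. RPL17 was at 9.97 and 8.49 CPM in siLMNA and at 17.8 and 15.9 CPM in siLacZ. These levels are far below those of the other members. In GENCODE 29 these genes share 48.2% (RPL36A), 77.02% (RPS10) and 81.5% (RPL17) of a coding transcript, on the same strand, with the read-through genes RPL36A-HNRNPH2, RPS10-NUDT3 and RPL17-C18orf32. Each read-through gene is listed at 0 in all 4 libraries, and the part of the overlap in the low counts was not tested.

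RPL26 and RPS15A were the next lowest per kilobase by the mean over all 4 libraries. RPL26, a tunnel-exit protein, was at 49.7 and 44.0 CPM in siLMNA and at 77.2 and 71.7 CPM in siLacZ, and it shares 59.0% of a coding transcript with AC135178.2, which had 0 to 3 counts per library. RPS15A, of the small subunit, was at 108 and 101 CPM in siLMNA and at 164 and 162 CPM in siLacZ, and it shares 21.3% with AC138811.2, listed at 0. The calls of the rarest genes were the least firm. RPL36A had an adjusted p of 0.0514 in DESeq2 and of 0.134 without siLacZ 1, in a range of 0.00256 to 0.134 over 13 alternatives, and RPS10 had one of 0.0813 without siLacZ 2, in a range of 0.00180 to 0.0813.

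Ribosomal protein genes have many processed pseudogenes, near-identical copies that can take or lend reads. The tables name 1108 pseudogenes of 76 members. Together they held 0.886% and 0.924% as many counts as the members in siLMNA and 0.861% and 0.844% as many in siLacZ. For 71 members the pseudogenes held under 5% of the member's own counts. The highest shares were those of RPL23A (16.9%), RPL9 (16.5%) and RPL36A (11.7%). The pseudogenes of RPL9, a large-subunit protein gene, had 2336 and 2511 counts in siLMNA and 4850 and 4466 counts in siLacZ, a shift in the direction of the gene itself (log2 fold change -0.84, SE 0.070). Those of RPL23A, a tunnel-exit protein gene, had 1263 and 1303 counts in siLMNA and 1409 and 1552 counts in siLacZ, beside a log2 fold change of the gene of -0.68 (SE 0.068). With each gene's pseudogenes added to it, the median over the members was -0.72.

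The members lie on 21 chromosomes, with 12 on chromosome 19, where log2 fold changes ran from -0.80 to -0.54. Between their start and end, 28 members hold snoRNA genes on the same strand, whose small RNAs guide the modification of rRNA. The median log2 fold change was -0.71 for these 28 and -0.73 for the other 49. Exons of 15 members overlap a gene on the opposite strand, and with the strand setting not given in the sources used here, reads of such partners cannot be told apart.

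Promoter entries were found in RefSeq for 62 of the 77 genes. A C at an annotated start followed by at least 4 further C or T bases was present in 46 of these 62 (74.2%), against 1404 of 27305 genes with an entry (5.14%). These 27305, called all genes below, were not filtered by gene type or expression, whereas the members are all protein coding and tested. The letters CCGGAA, a core that proteins of the ETS family bind, were found on either strand in 56.5% of the members and in 20.1% of all genes. The letters AAGATGGC, found in sites of YY1, were present in 9.68% of members and 3.52% of all genes, and GGGCGG, the GC box, in 58.1% of members and 48.3% of all genes. TATAAA was found in 8.06% of members and 14.0% of all genes, and CACGTG, the E-box, in 6.45% of members and 8.77% of all genes. These windows cover 250 bases before and 50 bases after a start, and genes with several starts had several windows; no motif searched contains another.

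The members were lower with and without these letters. The 46 genes with the tract at an annotated start had a median log2 fold change of -0.72. The 16 without it at an annotated start had a median of -0.74. The search read only the bases from the annotated start, so it does not show that these 16 mRNAs lack a TOP tract. Among genes with a single annotated start, the medians were -0.74 for the 40 with a tract and -0.84 for the 12 without one. The 35 genes with CCGGAA had a median of -0.73 and the 27 without it one of -0.74. For AAGATGGC the medians were -0.77 in 6 genes with the letters and -0.73 in 56 without them. The widest split of the 5 motifs was that of TATAAA, with a median of -0.85 in 5 genes with the letters and -0.73 in 57 without them, and the medians with and without GGGCGG or CACGTG were all -0.73.

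A pair of ribosomal proteins that the naming rule does not take was lower as well. FAU, whose product is cut into a ubiquitin-like protein and a small-subunit protein, was at 127 and 119 CPM in siLMNA and at 189 and 177 CPM in siLacZ (log2 fold change -0.57, SE 0.072). RACK1, a scaffold on the small-subunit head, was at 1618 and 1515 CPM in siLMNA and at 2221 and 2317 CPM in siLacZ (-0.53, SE 0.065). Both genes were called, and each lay above the median of the 77 genes.

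Paralogs of ribosomal proteins were less uniform. Of the 6 tested, 4 were lower and 2 did not pass. RPL22L1, the paralog of RPL22, was at 56.0 and 52.6 CPM in siLMNA, against 169 and 160 CPM in siLacZ. Its log2 fold change of -1.60 (SE 0.074; edgeR adjusted p = 8.49e-12) was below that of every member, and that of RPL22 itself was -0.51. RPL39L, at 1.80 and 1.16 CPM in siLMNA and 3.51 and 2.50 CPM in siLacZ, was lower by a log2 fold change of -1.02 (SE 0.268), and this call was lost in 2 of 13 alternatives, without siLacZ 1 or siLacZ 2. RPL7L1 (-0.34, SE 0.066) and RPL26L1 (-0.32, SE 0.077) were lower but did not pass the test of a 1.2-fold minimum. RPS27L, a p53 target related to RPS27, was at 101 and 97.5 CPM in siLMNA and at 104 and 96.9 CPM in siLacZ, and RPL36AL was at 123 and 115 CPM in siLMNA and at 136 and 126 CPM in siLacZ. The groups overlapped for RPS27L and did not for RPL36AL, and neither passed, with log2 fold changes of -0.02 (SE 0.072) and -0.13 (SE 0.072) and edgeR adjusted p-values of 0.821 and 0.128.

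Other mRNAs with a TOP tract, chiefly of translation factors, were lower by less. All 20 tested genes of this list were lower, with a median log2 fold change of -0.41. Beside them stand 27.8% of all genes tested and 40.2% of those with a mean of at least 100 CPM, a level that all 20 reached. EEF1B2, an exchange factor for elongation factor 1A, was at 291 and 270 CPM in siLMNA and at 547 and 519 CPM in siLacZ (-0.93, SE 0.069). EIF2S3, a subunit of initiation factor 2, followed at -0.84 (SE 0.065), and NPM1, the nucleolar protein nucleophosmin, at -0.79 (SE 0.063). The least changed were HNRNPA1 (-0.27, SE 0.063), EIF3F (-0.20, SE 0.070) and TPT1 (-0.16, SE 0.064). The call was lost in 6 of 13 alternatives for EIF3F and in 8 for TPT1, and HNRNPA1 did not pass the test of a 1.2-fold minimum. EEF1G is listed at 0 in every library.

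**Figure D5:**
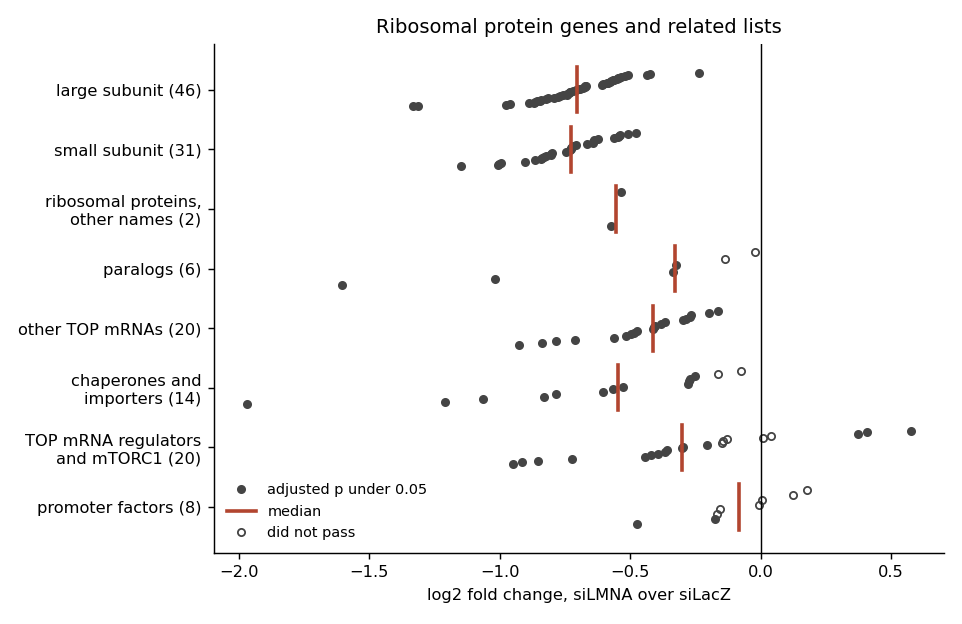
Log2 fold change (x axis, siLMNA over siLacZ) of each tested gene in the large and small subunit and in 6 related lists, with the number of genes in brackets; filled points passed an adjusted p under 0.05, open points did not, and red lines are medians. Points of the subunits cluster around medians of -0.70 and -0.73, the other TOP mRNAs around -0.41, and promoter factors around -0.08.

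Among regulators of TOP mRNAs and of mTORC1, 12 of 20 tested genes were lower, 3 were higher and 5 did not pass, beside 27.8% lower and 26.5% higher of all genes tested. EIF4EBP1, the translational repressor 4E-BP1, was at 25.3 and 24.4 CPM in siLMNA and at 49.0 and 47.0 CPM in siLacZ (-0.95, SE 0.080). MYC, a transcription factor that drives ribosome production, was at 277 and 239 CPM in siLMNA and at 483 and 489 CPM in siLacZ (-0.91, SE 0.075), and LARP1B, a relative of LARP1, was at -0.85 (SE 0.091). TIA1, an RNA-binding protein that represses TOP mRNAs under stress, was higher, at 85.6 and 94.6 CPM in siLMNA against 63.9 and 56.8 CPM in siLacZ (0.58, SE 0.080). MXI1, an antagonist of MYC, and TSC1, an inhibitor of mTORC1, were higher by 0.41 (SE 0.076) and 0.37 (SE 0.074) on the log2 scale. The MXI1 call was lost without siLacZ 1 or siLacZ 2, and TSC1 did not pass the test of a 1.2-fold minimum. The median of this list was -0.30.

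A list of chaperones and importers of free ribosomal proteins, which also holds the p53 regulator MDM2 and the nucleolar GTPase GNL3, had 12 of 14 genes lower, beside 27.8% of all genes tested, with a median of -0.55. GNL3 (nucleostemin) was at 77.9 and 81.5 CPM in siLMNA and at 192 and 177 CPM in siLacZ (-1.21, SE 0.073). PDCD2L, related to the chaperone PDCD2 of RPS2, had a log2 fold change of -1.07 (SE 0.174). IPO4, an importin, had the lowest value of the list (-1.97, SE 0.735) but stayed under 0.5 CPM in every library and lost its call in 6 of 13 alternatives. At the other end, HEATR3, a chaperone of RPL5, ZPR1, a zinc-finger protein, and TSR2, a chaperone of RPS26, were at log2 fold changes of -0.28 (SE 0.082), -0.27 (SE 0.075) and -0.25 (SE 0.091). Their calls were lost in 3, 4 and 7 of 13 alternatives.

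Of 8 factors that bind promoters of ribosomal protein genes or the motifs named above, 2 were lower and 6 did not pass, a share near the 27.8% of all genes tested that were lower. ZBTB33, also called Kaiso, was at 38.6 and 44.4 CPM in siLMNA and at 56.9 and 58.3 CPM in siLacZ (-0.47, SE 0.081), and it did not pass without siLacZ 2. SP1 was at -0.17 (SE 0.070) and lost its call in 9 of 13 alternatives. The median of this list was -0.08, so that it lay near the median of all genes tested.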

How the data were processed

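Poly(A) RNA of MCF10A cells was sequenced after siRNA transfection. The authors deposited raw read counts per gene for each library, in a table for each numbered pair. Beside the counts, per the file headers, stand the authors' normalized values, a signal equal to the count times a library factor, and the authors' log2 fold changes. Only the deposited counts gave results here, and the signal was used to check them. Per the submitters' processing notes, hg38 was the build. Not given in the sources used here are aligner, counter, annotation and strand setting. In 6 genes (CCNB1, CDH1, CLDN1, OCLN, TWIST1 and ZEB1) count and normalized value did not match within a relative tolerance of 1e-06, and these were left out of totals and tests; none encodes a ribosomal protein. The number of per-sample columns not used is 0.

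Counts of all 4 libraries were fitted with edgeR 4.0.16 (limma 3.58.1, R 4.3.3): TMM factors, filterByExpr, group as the only term, quasi-likelihood F test, and Benjamini-Hochberg adjustment over all 18540 genes tested with a threshold of 0.05. The procedure was tested on simulated data. Standard errors were taken as the size of the log2 fold change over the square root of F. DESeq2 1.42.0, other scaling factors, no filter, a 1.2-fold minimum, a replicate block, each library left out and pseudogenes added were tried. Between the libraries of a group, chi-square over its degrees of freedom was 6.42 in siLMNA and 8.42 in siLacZ, above sampling noise. Totals, in units of 1e6 counts, were 44.5 and 44.2 in siLMNA and 42.8 and 46.2 in siLacZ. Lengths, places and overlaps came from GENCODE 29, which is on hg38, and starts from RefSeq on GRCh38.p14.

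The members and lists were chosen with earlier results of these data known. Named are the 8 lowest and 8 highest log2 fold changes, the 5 highest and 5 lowest levels per kilobase, the stalk and 5S RNP genes, RPSA, RPS27A, RPL7A, the 3 members with the highest pseudogene share, all paralogs tested, FAU and RACK1, and the 3 lowest and 3 highest called genes of each other list. A gene of these lists is not reported here.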

Additional observations from a re-analysis of the deposited data

How the results depend on the processing

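All 13 alternatives left at least 76 of the 77 ribosomal protein genes lower and 0 higher. Scaling moved the size of the shift: the median log2 fold change was -0.65 with upper-quartile factors and -0.82 with library totals alone, where the median of all genes tested was itself -0.11. Leaving out each library in turn gave medians from -0.76 to -0.67, between 76 and 77 genes lower, a difference of large minus small from 0.031 to 0.051, and a difference in the share of counts from -3.400 to -2.996 percentage points. The larger differences between subunits came without siLMNA 1 (0.048) and without siLacZ 1 (0.051). The lost member calls were those of RPL36A (DESeq2, or without siLacZ 1), RPS10 (without siLacZ 2) and RPL15 (1.2-fold minimum), and their cause was not tested beyond the fewer libraries or the stricter limit. RPS27L, which did not pass, changed sign with upper-quartile factors (0.047), without siLMNA 2 (0.00021) and without siLacZ 1 (0.020), in a range of -0.056 to 0.020 over the libraries left out. Of 806 alternative values of 62 named genes, 746 kept direction and call, 56 lost the call, 1 gained it (RPL36AL, with library totals alone) and 3 reversed.

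Over all genes tested, deviations of same-numbered libraries from their group means had a correlation of -0.034. With 2 libraries a group, the crossed numbering gives the same value with the opposite sign. A value near 0 shows no common pattern by number over all genes, but it cannot tell whether the libraries were paired. With the numbers as a replicate block, 77 genes were lower, with a median of -0.72; TPT1 and SP1 lost their calls. The rarest members, RPL36A and RPS10, had 188 to 379 counts per library, and their standard errors of 0.163 and 0.151 were the highest, followed by 0.118 for RPL17. With 2 libraries a group, the standard errors rest on few samples.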
